A study of Mus musculus with 15 samples.

Results

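The neuromuscular junction genes described here are 10 genes picked by name: the acetylcholine receptor subunit genes Chrna1, Chrnb1, Chrnd, Chrne and Chrng, and the endplate genes Musk, Dok7, Rapsn, Lrp4 and Colq. Each name matched 1 of the 55536 genes in both deposited tables, and all 10 passed the filter on low values in every comparison. Chrng did so against controls only through the controls, since too few samples of either mutant group reached 10. Their RNA was measured by RNA sequencing of skeletal muscle from 15 mice aged 2 months, all labelled male. There were 5 wild-type controls, 5 mice labelled PdgfrB Knock Out, with the receptor gene removed in a myogenin-specific way (knockout), and 5 labelled PdgfrB D489V, with a myogenin-specific constitutively active receptor (D489V). Values are normalized gene counts as deposited. Myogenin marks cells of the muscle lineage, so RNA from vessels, nerve, fat and connective tissue in the same piece comes from cells outside the targeted lineage, and in such bulk samples fewer cells of a type and less RNA per cell cannot be told apart. The labels name no muscle, litter or batch and do not say what else, such as a Cre allele, the wild-type mice carried.

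At the neuromuscular junction, the motor nerve ending releases acetylcholine onto a small patch of the muscle fibre packed with receptors. The adult receptor is built from alpha, beta, delta and epsilon subunits, and the fetal receptor has a gamma subunit in place of epsilon. Agrin from the nerve binds LRP4, which activates the kinase MuSK with the help of the adaptor DOK7, and rapsyn then anchors the receptors in clusters. ColQ is the collagen tail that holds acetylcholinesterase in the synaptic cleft. Muscle that has lost its nerve is known to raise the RNA of several of these genes, the gamma subunit and Musk among them.

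Upstream sequence was found for 6 of the 10 genes in RefSeq promoters of GRCm38.p6. The stretches from 160 to 31 bases before the RefSeq start of Chrne, Chrng, Chrna1 and Musk are shown because they held the letters searched for, in the adult and fetal subunit genes, in the alpha subunit gene and in Musk. They lie at chr11:70619225-70619354 (minus strand), chr1:87205651-87205780 (plus strand), chr2:73580369-73580498 (minus strand) and chr4:58285802-58285931 (plus strand), and none overlaps an annotated exon of its gene, although the Chrng stretch lies within the longer gene span of the annotation. Capitals mark CAGCTG, a form of the E-box bound by MyoD and myogenin, and CCGGAA, the N-box bound by ETS factors such as GABP.
Chrne: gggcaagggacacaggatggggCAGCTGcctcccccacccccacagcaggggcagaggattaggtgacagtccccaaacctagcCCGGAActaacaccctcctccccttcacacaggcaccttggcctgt
Chrng: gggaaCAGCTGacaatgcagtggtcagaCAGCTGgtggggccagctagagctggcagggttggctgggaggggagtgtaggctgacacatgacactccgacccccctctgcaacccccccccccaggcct
Chrna1: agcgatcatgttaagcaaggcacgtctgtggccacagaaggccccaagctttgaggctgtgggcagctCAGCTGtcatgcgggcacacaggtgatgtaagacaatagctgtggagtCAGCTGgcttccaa
Musk: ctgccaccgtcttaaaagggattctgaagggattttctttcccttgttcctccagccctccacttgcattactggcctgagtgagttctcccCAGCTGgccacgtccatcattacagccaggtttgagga
In the 250 bases before the start, searched on both strands, CAGCTG was found in 4 of the 6 genes, these same 4, and CCGGAA in 1, Chrne. Over all 32851 promoters of that length in the table, 13% held CAGCTG and 12% held CCGGAA. The matches began 138 (CAGCTG) and 76 (CCGGAA) bases before the start in Chrne, 155 and 132 in Chrng, 92 and 44 in Chrna1 and 68 in Musk. Chrnb1 and Dok7, the other genes with a sequence, held neither string in this window. A match is a string of letters and does not show that a factor binds there.

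The normalized counts summed to 29815559 to 36489777 per sample, and the number of reads in genes, estimated from the gaps that rounding left, was 25700000 to 39600000. Defining markers of muscle fibres were high in every sample, with Acta1 at 939485 or more, and the motor axon genes were near 0: 7 of 9 stayed below 10 in all samples, Chat among them. Pdgfrb, the check of the labels, held 1754 ± 72.9 normalized counts in controls, 1308 ± 266 in knockout and 906 ± 106 in D489V (SD, n = 5 each), and each mutant sample lay below each control. Whole muscle therefore still held Pdgfrb RNA in both mutant groups, and the D489V samples held less of it than controls (log2 change -0.96, limma adjusted p 0.00168), while the change in knockout did not pass (-0.45, limma adjusted p 0.294). Between the mutants, knockout held more Pdgfrb RNA than D489V (log2 difference 0.51, limma adjusted p 0.0258), with the groups overlapping. The level thus set each mutant group below controls but does not show which allele a sample carried. All mice are labelled male, but in the library labelled knockout replicate 3 Xist reached 3165 normalized counts, where no other sample passed 101. D489V replicate 3 stood apart in Schwann and nerve markers, whose sum was 52135 there and at most 16399 elsewhere, and control 5 and knockout 3, 4 and 5 stood apart in lymphocyte markers, at 1639 to 6436 against at most 313.

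Per kb of exon, Chrnb1 and Chrne were the most abundant of the genes, at 643 ± 115 and 481 ± 129 normalized counts per kb (SD, n = 15). Chrnb1 exceeded Chrne in 15 of 15 samples, while Chrne exceeded Rapsn (379 ± 55.5 per kb) in 11 of 15. Rapsn exceeded Dok7 in 15 of 15 samples, and Dok7 exceeded Chrna1 in 13 of 15. Chrna1 held 139 ± 25.3 per kb, a value that depends on its annotated exon length of 4386 bases, where Chrne has 1690. RNA per kb does not give the numbers of subunits in the receptor. Colq came next, at 96.7 ± 21.5 per kb, below Chrna1 in all 15 samples. Chrnd, Musk and Lrp4 lay together at 37.0 ± 7.81, 35.9 ± 27.3 and 33.3 ± 4.93 per kb, and their order changed from sample to sample. Chrng was the lowest in 15 of 15 samples, at 3.59 ± 2.00 per kb. The exon lengths are those of the annotation, and which transcripts were counted is not given in the sources used here.

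**Figure D1:**
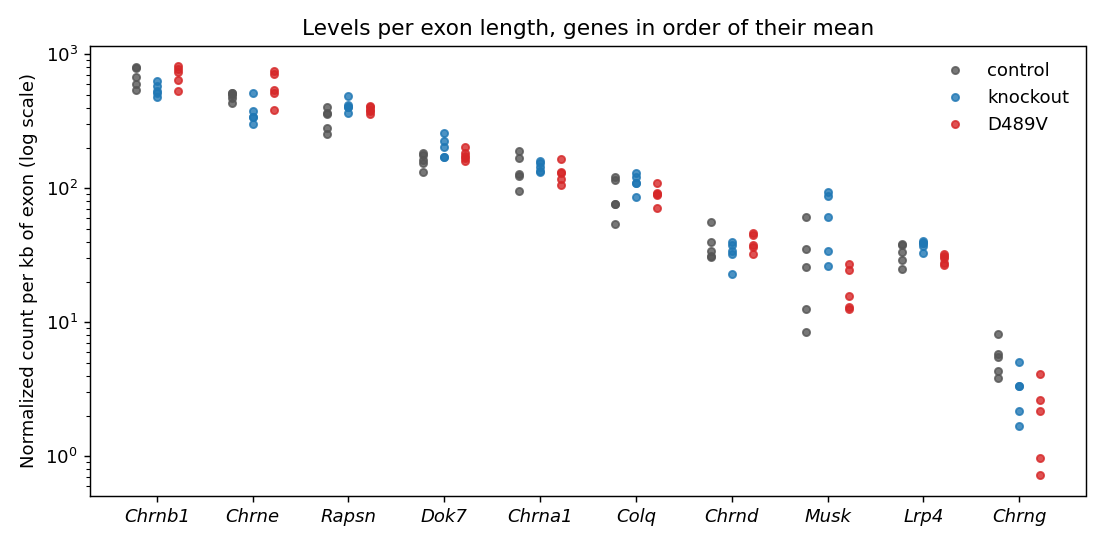
Normalized count per kb of annotated exon (log axis) of each gene in each of 15 samples, coloured by group, with genes in order of their mean over all samples. Chrnb1 and Chrne lie at the top, Chrng lies lowest, and Musk spreads most among the genes above Chrng.

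Against controls, none of the 10 genes passed the threshold in either mutant. In knockout 0 of 10 were called, against a background of 0.00656% of 15234 genes tested (limma, adjusted p under 0.05). In D489V it was 0 of 10, against 0.0587% of 15339. With so few genes called anywhere, these counts say little about the junction genes. Taken without adjustment, 6 of 10 had a limma p under 0.05 in knockout, where 15.1% of all genes did. These were 3 higher (Musk, Dok7, Rapsn), where 7.65% of all genes were higher, and 3 lower (Chrnb1, Chrne, Chrng), where 7.42% were lower. In D489V 1 of 10 did, Chrng, where 9.43% of all genes did. Chrng counts in both, although it passed the filter there only through the controls. Groups overlapped for all 10 in both, while 2.24% of all genes in knockout and 2.16% in D489V did not overlap with controls. The median log2 change of the 10 was 0.15 in knockout and 0.06 in D489V, beside 0.01 and 0.00 over all genes tested. Both comparisons share the 5 controls.

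Between the mutants 3 of 10 genes were called, 2 higher in knockout (Musk, Lrp4) and 1 lower (Chrne). The background there was 20.8% of 15299 genes, 10.5% higher and 10.3% lower, so 3 of 10 is near what the whole table gave. The count was 1, Musk, without any 1 of knockout 2, 3 and 5 and D489V 1 and 2, and the 3181 genes called in all were 1398, 1526 and 1989 without D489V 1, 2 and 3. At an unadjusted p under 0.05 there were 4 of 10, Chrnb1 being the other one, where 37.7% of all genes passed. Groups did not overlap for 1 of 10, Lrp4, where 13.9% of all genes did not. The median log2 difference of the 10 was 0.18, beside 0.00 over all genes. Markers of other cells parted the same groups: adipocyte sums were 11804 to 20221 in knockout and 30187 to 99034 in D489V, with 7136 to 67358 in controls, and 6 of 7 adipocyte markers were called lower in knockout (limma, median log2 difference of the list -1.88). Their part in the differences of the junction genes was not tested. Replicates come from separately labelled mice, but nothing else is said of their origin, and exact two-sided permutation tests of 5 against 5 cannot give a p below 0.00794.

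**Figure D2:**
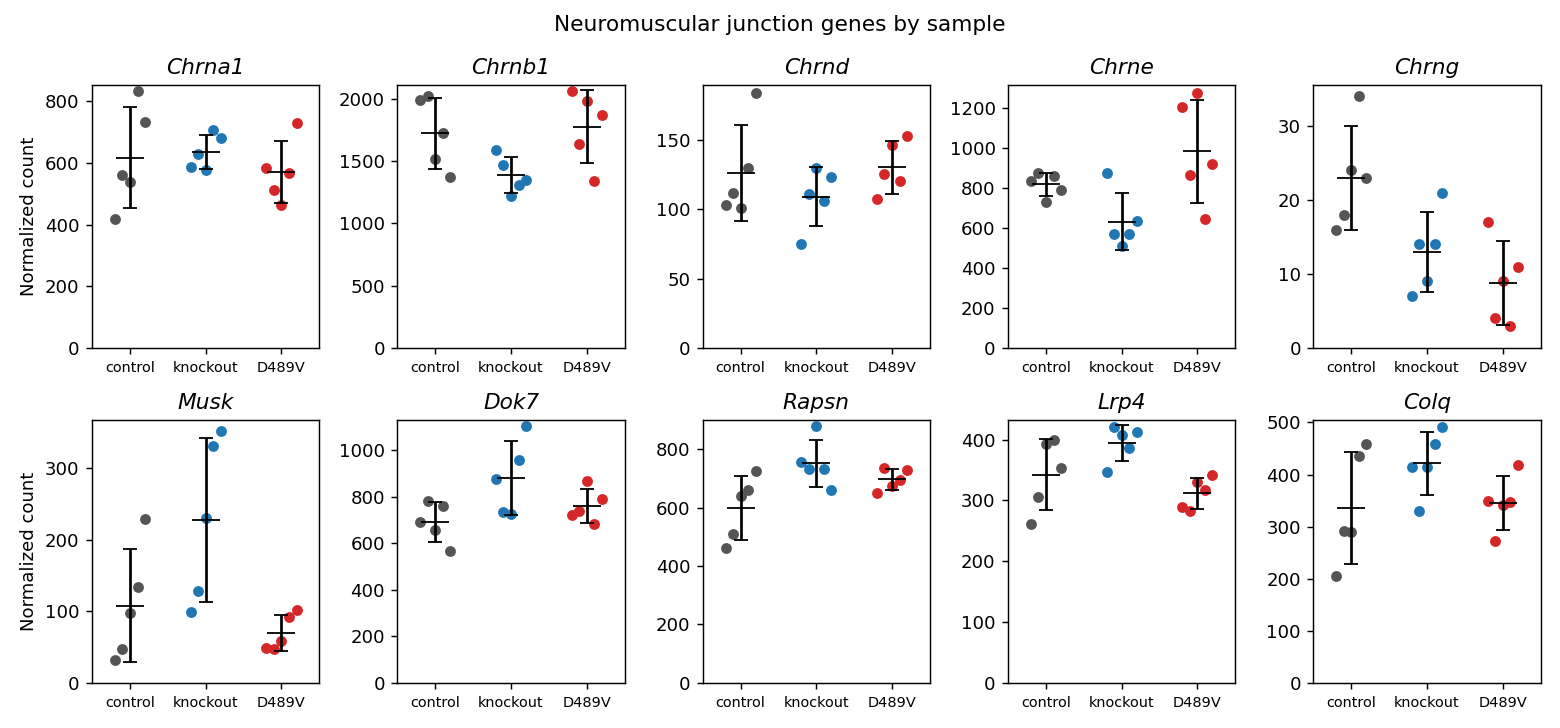
Normalized counts of each of the 10 genes by group, with 1 point per sample in order of replicate number and the mean ± SD (n = 5) in black; each vertical axis starts at 0. Lrp4 is the gene whose knockout and D489V points do not overlap, and Musk ranges from 32 to 352.

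Chrne (ENSMUSG00000014609, chr11:70614883-70619216, minus strand of GRCm38) encodes epsilon, the subunit that marks the adult receptor. Its normalized counts were 836, 874, 733, 862 and 792 in controls 1 to 5. In knockout 1 to 5 they were 874, 571, 512, 573 and 635, and in D489V 1 to 5 they were 1208, 866, 1277, 647 and 922. The controls were close together, 4 of 5 knockout samples lay below all of them, and 3 of 5 D489V samples lay above all of them. The means were 819 ± 57.6 in controls, 633 ± 142 in knockout and 984 ± 259 in D489V (SD, n = 5). Chrne was lower in knockout than in D489V by 0.62 on the log2 scale (-0.62, SE 0.19, 95% interval -1.03 to -0.21, limma adjusted p 0.0383, exact permutation p 0.0238), a ratio of 0.651, with the groups overlapping through knockout 1. Against controls the log2 change was -0.39 in knockout (limma adjusted p 0.305) and 0.22 in D489V (limma adjusted p 0.703). The call between the mutants was lost when any 1 of knockout 2, 3, 4 and 5 or D489V 1, 2, 3 and 5 was left out, with limma adjusted p of 0.0510 to 0.0994 and log2 differences of -0.65 to -0.51, and with no filter on low values (limma adjusted p 0.0520). Among controls Chrne was one of the steadier genes of the table, since 92.3% of 14948 genes had a log2 SD at least as large as its 0.10.

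Chrng (ENSMUSG00000026253, chr1:87204657-87212694, plus strand of GRCm38) encodes gamma, the fetal subunit that epsilon replaces around birth. It was read in each sample, at 16, 18, 24, 34 and 23 normalized counts in controls 1 to 5. Knockout samples held 7, 14, 9, 14 and 21, and D489V samples 17, 4, 9, 3 and 11. In each mutant group 4 of 5 samples lay below all controls. The log2 change was -0.82 (SE 0.34, limma adjusted p 0.312, exact permutation p 0.0397) in knockout and -1.46 (SE 0.43, limma adjusted p 0.278, exact permutation p 0.0159) in D489V, and neither passed over all genes. Chrng entered both tests through the controls, its highest group, so these values serve as a description only. Such counts are a handful of reads, and Chrng's log2 SD in D489V, 0.90, was reached by 2.10% of genes. Per kb, gamma made up 1.13 ± 0.336% of the summed Chrng and Chrne level in controls, 0.865 ± 0.373% in knockout and 0.342 ± 0.174% in D489V (SD, n = 5). All 5 D489V samples, at 0.187 to 0.568%, lay below all controls, at 0.771 to 1.58%, a share that moves with both genes and was not tested.

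Chrnb1 (ENSMUSG00000041189, chr11:69784036-69795943, minus strand of GRCm38) encodes the beta subunit. It held 1985, 2020, 1513, 1725 and 1373 normalized counts in controls, 1587, 1466, 1220, 1309 and 1347 in knockout, and 2057, 1635, 1977, 1338 and 1869 in D489V. The knockout samples lay at the lower end of both other groups and overlapped them. The log2 difference of knockout was -0.30 from controls (limma adjusted p 0.312) and -0.35 from D489V (limma adjusted p 0.0613, exact permutation p 0.0397). The second passed with upper-quartile rescaling (limma adjusted p 0.0457), with quantile normalization (0.0409) and without D489V 4 (0.0133). D489V differed from control by 0.04 (95% interval -0.27 to 0.35), and the sign of this value changed under several alternatives.

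Chrna1 (ENSMUSG00000027107, chr2:73563215-73580338, minus strand of GRCm38) encodes the alpha subunit, which carries much of the acetylcholine binding site. Chrnd (ENSMUSG00000026251, chr1:87190607-87200070, plus strand of GRCm38), the neighbour of Chrng on that chromosome, encodes delta. Chrna1 held 420 to 833 normalized counts in controls, 578 to 706 in knockout and 463 to 730 in D489V, so that both mutant groups lay inside the control range. Its log2 changes from control were 0.08 (95% interval -0.28 to 0.44) in knockout and -0.09 (-0.49 to 0.31) in D489V. Chrnd held 101 to 184 in controls, 75 to 130 in knockout and 107 to 153 in D489V, with log2 changes of -0.19 (95% interval -0.64 to 0.25) and 0.07 (-0.32 to 0.47).

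Musk (ENSMUSG00000057280, chr4:58285960-58374303, plus strand of GRCm38) encodes the receptor kinase that organizes the endplate, and it varied more than any other of the 10 genes among controls and among knockout samples. Controls 1 to 5 held 32, 47, 98, 134 and 229 normalized counts. Knockout 1 to 5 held 99, 129, 230, 332 and 352, and D489V 1 to 5 held 49, 47, 59, 92 and 102. The D489V samples all lay within the control range, and 3 of 5 knockout samples lay above it. The log2 difference between knockout and D489V was 1.60 (SE 0.36, 95% interval 0.81 to 2.39, limma adjusted p 0.0134, exact permutation p 0.0159), a ratio of 3.03 on the log2(value + 1) scale, and 4 of 5 knockout samples lay above all D489V samples. Knockout against control gave 1.24 (SE 0.52, limma adjusted p 0.314, exact permutation p 0.0873), and D489V against control gave -0.36 (SE 0.47, limma adjusted p 0.847). Both values moved with the settings: knockout against control ranged from 0.89 without control 1 to 1.59 without control 5 and was 0.48 with the Schwann and nerve score as a covariate, and D489V against control ranged from -0.71 without control 1 to -0.0116 without control 5. Leaving out any 1 sample kept the call between the mutants, with log2 differences of 1.40 to 1.86, and without knockout 3, the library with Xist, it was 1.56 (limma adjusted p 0.0277). The controls alone spanned 7.16-fold, and 3.40% of 14948 genes had a log2 SD among controls as large as Musk's 1.13.

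The 4 samples with the highest Musk, control 5 and knockout 3, 4 and 5, were the same 4 that stood apart in lymphocyte markers. Left without them, in a setting added after the values were seen, knockout 1 and 2 differed from D489V by 0.76 in Musk (limma adjusted p 0.174). In that setting 0 of the 10 genes and 586 genes in all were called, where 3181 were called with all samples. Among the other samples, control 4 had the fifth highest Musk with a marker sum of 40, and control 1 the lowest Musk with 137. Hoxd9, a gene of position along the limb, was at 577 to 707 in the 5 samples with the highest Musk and at 672 in D489V 3, and at most 294 elsewhere, and its part in the Musk values was not tested. Schwann and nerve markers were lower in knockout than in D489V without overlap, with sums of 6933 to 10689 against 13503 to 52135 and 9686 to 15114 in controls. Of these markers 9 of 13 were called lower between the mutants, where 10.3% of all genes were. With that list's score as a covariate the Musk difference was 1.53 and did not pass (limma adjusted p 0.324), Chrne's was -0.20 (0.846) and Lrp4's 0.37 (0.357). Because this score parted the mutant groups entirely, nerve content and genotype cannot be told apart in that fit. Slow fibre markers were high in the same samples too: the 4 with the highest Musk were among the 5 highest slow fibre sums, at 127057 to 202936, with D489V 3 at 197327 as the other, and control 4 came next at 84054. All other samples held 7092 to 60768. Adjusted for the slow fibre score, Musk differed by 1.69 between the mutants (limma adjusted p 0.00278), 1.25 between knockout and control (0.148) and -0.51 between D489V and control (0.680).

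**Figure D3:**
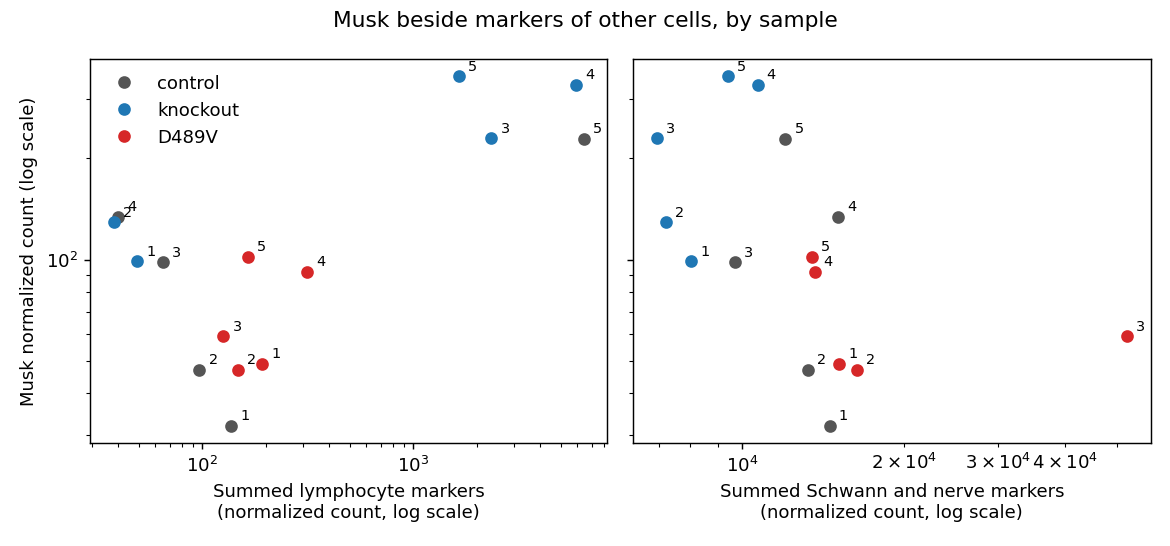
Musk normalized count of each sample against the summed normalized counts of 10 lymphocyte markers (left) and of 13 Schwann and nerve markers (right), all axes logarithmic, with replicate numbers beside the points. The 4 samples with lymphocyte sums of 1639 or more hold the 4 highest Musk values, and all knockout points lie left of all D489V points on the nerve axis.

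Lrp4 (ENSMUSG00000027253, chr2:91457511-91513779, plus strand of GRCm38) encodes the agrin receptor of the muscle membrane. Its normalized counts were 262, 305, 393, 400 and 353 in controls, 347, 421, 408, 386 and 413 in knockout, and 289, 283, 330, 317 and 342 in D489V. All knockout samples lay above all D489V samples, by a narrow gap, and the control range held all D489V samples and 2 of 5 knockout samples. Lrp4 was higher in knockout than in D489V by 0.34 on the log2 scale (SE 0.10, 95% interval 0.13 to 0.55, limma adjusted p 0.0301, exact permutation p 0.00794). Against controls the log2 change was 0.22 in knockout (limma adjusted p 0.410) and -0.12 in D489V (limma adjusted p 0.813). The call between the mutants was lost without any 1 of knockout 2, 3 and 5 and D489V 1 and 2, with log2 differences of 0.30 to 0.33 and limma adjusted p of 0.0578 to 0.0796. It was lost too with upper-quartile rescaling, no filter on low values, one fit over all 15 samples and the replicate number as a block (limma adjusted p 0.0535, 0.0576, 0.0592 and 0.0638).

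Dok7 (ENSMUSG00000044716, chr5:35056766-35087839, plus strand of GRCm38) encodes the adaptor that activates MuSK from inside the fibre. Rapsn (ENSMUSG00000002104, chr2:91035620-91045729, plus strand of GRCm38) encodes rapsyn, the receptor's anchor. Dok7 held 568 to 783 normalized counts in controls, 728 to 1105 in knockout and 683 to 868 in D489V. Rapsn held 460 to 725, 659 to 880 and 650 to 735 in the same order. In both genes every knockout sample lay above the control median, and the groups overlapped. The log2 changes of knockout from control were 0.34 for Dok7 (95% interval 0.04 to 0.63, limma adjusted p 0.312) and 0.34 for Rapsn (0.05 to 0.64, limma adjusted p 0.312), and those of D489V were 0.14 and 0.24 (limma adjusted p 0.717 and 0.593). Between the mutants Dok7 differed by 0.20 (95% interval -0.07 to 0.46) and Rapsn by 0.10 (-0.09 to 0.30). Rapsn shares exon positions with Gm13778, a transcript on the opposite strand with a mean of 15.9 normalized counts.

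Colq (ENSMUSG00000057606, chr14:31523082-31591343, minus strand of GRCm38), the gene of the acetylcholinesterase tail, held 205, 291, 289, 435 and 458 normalized counts in controls, 415, 330, 415, 458 and 491 in knockout and 349, 273, 341, 347 and 418 in D489V. Controls alone spanned the range of nearly all mutant samples. The log2 change was 0.38 in knockout (95% interval -0.08 to 0.83, limma adjusted p 0.384) and 0.09 in D489V (-0.36 to 0.55, limma adjusted p 0.919), and knockout differed from D489V by 0.29 (-0.0039 to 0.58, limma adjusted p 0.138). Colq shares exon positions with Gm49387, a protein-coding gene on the same strand with a mean of 0.0 normalized counts. How reads in the shared exons were counted is not given, and their part in the Colq level was not tested.

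**Figure D4:**
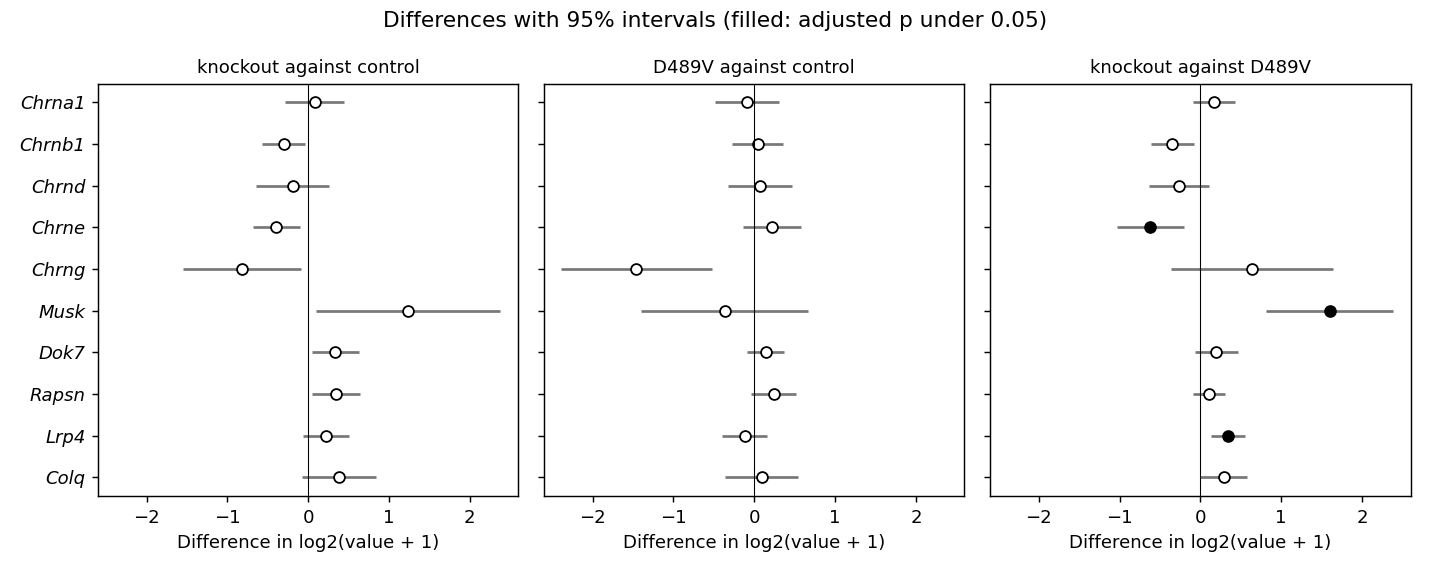
Log2 differences of the 10 genes with 95% intervals for each mutant group against controls and for knockout against D489V (5 samples a group), filled where the limma adjusted p is under 0.05. Filled points are Chrne, Musk and Lrp4 between the mutants, and Chrng and Musk have the widest intervals.

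Beyond their group means, some of the genes varied together from sample to sample. With each group's mean subtracted, 3 of 45 pairs passed a permutation test within groups (100000 permutations, Benjamini-Hochberg over the 45 pairs). Chrna1 and Colq had a Pearson r of 0.86 and a Spearman rho of 0.84 over 15 samples (permutation p 0.0016 and 0.0011, adjusted p 0.025 for both). Musk and Colq had r = 0.84 and rho = 0.83 (permutation p 0.0014 and 0.0017, adjusted p 0.025 for both). Chrnb1 and Chrne had r = 0.78 and rho = 0.80 (permutation p 2.5e-04 and 6.1e-04, adjusted p 0.011 and 0.025). Without the 2 samples farthest from the median of the first gene, r was 0.73, 0.70 and 0.75. The adult subunit genes did not all vary together, since Chrna1 had r = -0.12 with Chrne and r = -0.28 with Chrnb1, neither past the test. Chrnb1 and Musk had the lowest r, -0.69, with an adjusted permutation p of 0.069. All samples share 1 normalization, and Musk, Colq and Chrna1 were each lowest in control 1 among all samples.

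**Figure D5:**
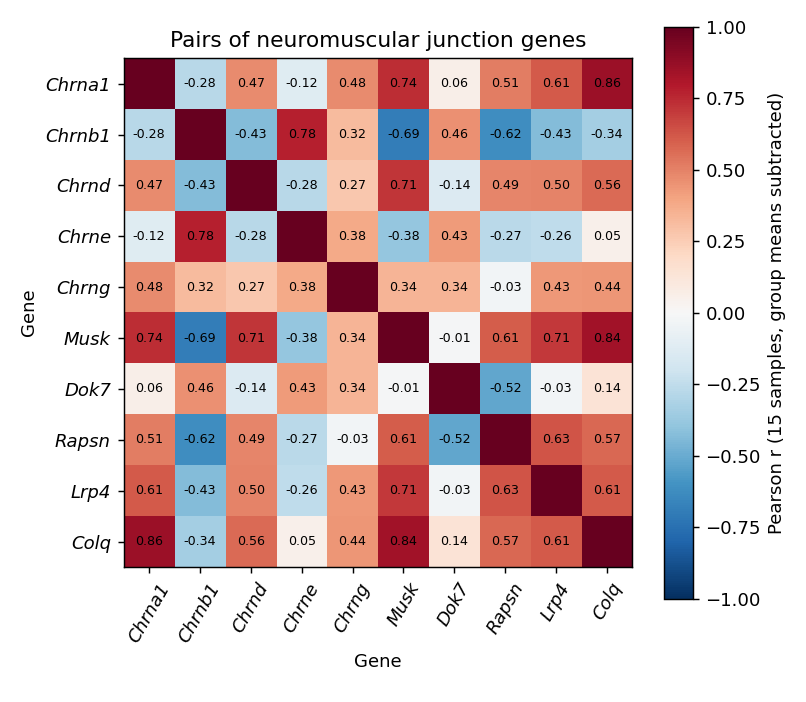
Pearson r between each pair of the 10 genes over 15 samples after subtracting group means (colour scale from -1 to 1). Musk, Colq, Chrna1, Chrnd and Lrp4 have positive r with each other, and Chrnb1 has positive r with Chrne and negative r with Musk and Rapsn. Of these pairs only Chrna1 with Colq, Musk with Colq and Chrnb1 with Chrne passed the permutation test within groups.

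Over 14938 other genes, those most like the summed log2 level of Chrna1, Chrnb1, Chrnd and Chrne, after subtracting group means, were Exosc7 (r = 0.85), Msc (r = 0.82), Slit1 (r = 0.82), Pank4 (r = 0.81) and Usp20 (r = 0.81). These are the highest of many values over 15 samples and serve as a description. Msc encodes the transcription factor musculin and ranged from 52 to 143 normalized counts. Slit1, the gene of a secreted guidance protein, ranged from 46 to 135.

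Other genes of agrin, MuSK and neuregulin signalling were counted from a list of 25, of which 23 were tested against controls and 24 between the mutants. No member was called against controls in either mutant, and 7 of 24 were called between the mutants, 4 higher and 3 lower in knockout, where 20.8% of all genes were called, 10.5% higher and 10.3% lower. The median log2 difference of the list was 0.05, beside 0.00 over all genes, and the share called was near that of the whole table. Agrn, the agrin gene, held 948 ± 141 normalized counts in knockout against 1377 ± 247 in D489V and 1325 ± 264 in controls (SD, n = 5), a log2 difference of -0.53 between the mutants (limma adjusted p 0.0181). The neuregulin receptor genes Erbb2 and Erbb3 were also lower in knockout than in D489V, by -0.59 and -0.48 on the log2 scale (limma adjusted p 0.0167 and 0.0403). Abl2, an Abl family kinase, and Crkl, an adaptor that binds DOK7, were higher, by 0.52 and 0.41 (limma adjusted p 0.0116 and 0.0397). Agrn, Erbb2 and Erbb3 are also expressed in Schwann or vessel cells, whose markers were lower in knockout: all 6 endothelial markers were called between the mutants, with sums of 7079 to 11358 in knockout and 13820 to 16043 in D489V. Their part in these differences was not tested. Nrg1, the neuregulin gene, held at most 5.

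The synaptic basal lamina and postsynaptic scaffold list had 0 of 23 genes called against controls in each mutant and 4 of 23 between the mutants, 2 in each direction, a share below the 20.8% of all genes called there. Utrn encodes utrophin, a dystrophin relative concentrated at the endplate. It held 725 to 815 normalized counts in knockout, 775 to 1013 in controls and 968 to 1126 in D489V, and was lower in knockout than in D489V without overlap (log2 difference -0.45, limma adjusted p 0.00437). Lama5, a laminin chain of the synaptic basal lamina, was lower too (-0.46, limma adjusted p 0.0323), while the integrin gene Itgb1 (0.45, limma adjusted p 0.0299) and the cytoskeletal linker gene Plec (0.44, limma adjusted p 0.0430) were higher. Endothelial and Schwann markers were also lower in knockout than in D489V, and their part in these differences was not tested. Utrn and Ufsp1 were also the 2 of 7 tested markers of synaptic myonuclei called between the mutants, both lower in knockout, Ufsp1 by -0.46 (limma adjusted p 0.0357). Over all genes 20.8% were called and 10.3% were called lower, and 7 markers are too few to set apart from these shares. Vav3 and Phldb2 had the smallest p of that list in knockout against control, with log2 changes of -0.61 and -0.32 that did not pass (limma adjusted p 0.297 and 0.305). Etv5, an ETS factor of synaptic nuclei, held 198 to 554 in controls, 375 to 433 in knockout and 287 to 471 in D489V.

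Of 18 denervation-responsive genes, 0 were called against controls in each mutant and 3 between the mutants, all lower in knockout, where 20.8% of all genes were called and 10.3% were lower, so the count is near the background. These were Cdkn1a, a cell cycle inhibitor (-0.96, limma adjusted p 0.0188), the kinase gene Sik1 (-0.59, limma adjusted p 0.0159) and Myh3, the embryonic myosin gene (-0.84, limma adjusted p 0.0472). Myog, the transcription factor gene that drives receptor genes after denervation, held 455 to 677 normalized counts in controls, 317 to 538 in knockout and 373 to 561 in D489V, with log2 changes from control of -0.41 in knockout (limma adjusted p 0.312). Ncam1, an adhesion gene that rises after denervation, held at most 336 in knockout, 271 to 384 in controls and up to 555 in D489V 3. Dach2, a repressor gene of this response, held 9 to 32 in controls, 10 to 116 in knockout and 9 to 33 in D489V. In D489V, Cdkn1a held 1455 to 3078 against 612 to 1364 in controls, without overlap, and the difference did not pass over all genes (limma adjusted p 0.114). The median log2 difference of the list between the mutants was -0.08, beside 0.00 over all genes. The list was not split by the direction of each gene's response, so its median and counts give no direction of a denervation response. Of the 9 motor axon genes only Nefh, a neurofilament gene, passed the filter, and it was higher in knockout than in D489V (49 to 98 against 19 to 30 normalized counts, log2 difference 1.51, limma adjusted p 0.00309), opposite in direction to the Schwann markers.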

How the data were processed

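Skeletal muscle RNA of 5 control, 5 knockout and 5 D489V mice was poly(A)-selected and sequenced with a directional kit, per the labels' protocols. The deposited values are a score: normalized gene counts that the authors rounded to whole numbers, per the names of the tables. Trim Galore 0.6.0, STAR 2.7.0e, DESeq2 1.26.0 and GRCm38 are named in the submitters' processing notes, with no role. The counting tool, annotation and normalization step are not given in the sources used here. The 5 control columns were identical in both tables, and the median ratio of samples to their geometric mean was 1.0069 to 1.0097, so the tables were joined by gene identifier. All 55536 identifiers matched GENCODE M21 on GRCm38. Reads per sample were estimated from gaps and doubled values left by rounding. The estimated scale factors ran from 0.805 to 1.24, and several were close to 1, where rounding leaves few gaps. Whole reads were not recovered in all columns, so no count model was run.

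Genes reaching 10 in no fewer than 5 of the 10 samples compared were log2-transformed with a pseudocount of 1 and fitted by limma 3.58.1 (R 4.3.3; two-sided moderated test, variance trend in eBayes). P-values were adjusted by Benjamini-Hochberg over all genes tested, with a threshold of 0.05. Fold changes on the log2(value + 1) scale come out too small for low genes such as Chrng. Members were also compared by exact permutation tests (scipy 1.17.1). The limma step was tested on simulated data. The text names the 10 members, Pdgfrb and, per list, up to 5 called genes by smallest p, or up to 3 otherwise. Etv5, Nrg1, Hoxd9, Xist, Ncam1, Acta1, Chat and Gm13778 were named after their values were seen. Members, lists and tests were chosen with earlier results of these data known. Replicate numbers did not pair samples (closing section). Alternatives changed the pseudocount, filter, scaling, variance model, weights, block, covariates and samples.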

Additional observations from a re-analysis of the deposited data

How the results depend on the processing

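The number of junction genes called against controls was 0 in each mutant under all 23 alternatives. Between the mutants it was 3, and 1 with no filter on low values, 0 with the Schwann and nerve score as a covariate, 0 without the 4 samples with the highest lymphocyte markers (added after the data were seen), and 1 to 4 when 1 sample was left out. Musk stayed called in 21 of 23 alternatives, Chrne in 12 and Lrp4 in 12. Genes called over the whole table moved in knockout against control from 1 to 3 with upper-quartile rescaling, 3 with quantile normalization, 16 in one fit over all 15 samples, 17 with the slow fibre score, 3 without the 4 samples, and 1 to 7 without 1 sample. In D489V against control they moved from 9 to 4 with a mean of 50 or more, 19 with pseudocount 5, 21 with robust eBayes, 16 after quantile normalization, 23 after upper-quartile rescaling, 86 with array weights, 1 in one fit over all 15 samples, 94 with the slow fibre score, and 2 to 26 without 1 sample. Between the mutants they moved from 3181 to 351 with the nerve score, 586 without the 4 samples, and 1398 to 3686 without 1 sample. For all these shifts the cause was not tested.

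Signs changed only for values whose adjusted p did not pass in the comparison concerned, Rapsn in knockout (unadjusted limma p 0.0263) among them. With the nerve score, the log2 changes of Chrna1, Rapsn and Lrp4 in knockout against control became -0.19, -0.0206 and -0.0711, those of Chrna1, Chrnb1, Chrne and Musk in D489V against control 0.19, -0.14, -0.0283 and 0.26, and that of Chrna1 between the mutants -0.10. Chrnb1 in D489V against control was -0.0248 with array weights and -0.0358 without the 4 samples. Without 1 sample, Chrna1 ranged from -0.0487 to 0.20 in knockout and -0.22 to 0.0296 in D489V, Chrnb1 from -0.0358 to 0.14 and Colq from -0.0709 to 0.22 in D489V. A replicate block gave 1, 7 and 2208 called genes and 0, 0 and 2 called junction genes in the 3 comparisons. Deviations from the group means correlated between samples of equal number at -0.21 to 0.24, -0.40 to 0.39 and -0.11 to 0.10, and the samples were therefore not treated as paired. Lrp4 was the gene whose call the block ended. Musk rose with replicate number in controls and in knockout, and in D489V from replicate 2 on (47, 59, 92 and 102, with 49 in replicate 1). For it the block took the limma adjusted p of knockout against control from 0.314 to 0.105. Single-gene log2 changes gave 681 values over these settings, of which 17 changed sign, 24 lost a call, 3 gained one and 637 did neither. Chrng had no value where the filter removed it.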
